A study of Mus musculus with 12 samples.

Results

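Gene expression in the unischemic kidney was compared between HDAC2-/- and WT mice, using the 3 arrays labelled HDAC2 and the 3 arrays labelled WT that had no ischemia, 6 of the 12 arrays of the series. The other 6 arrays, 3 of each genotype taken 4 h after 28 min of warm ischemia, were used only for the shared estimate of spread and for a look at the same genes in separate mice. The HDAC2-/- mice carried floxed HDAC2 and a tamoxifen-inducible Cre (HDAC2fl/fl-ERTcre in the labels), and the WT mice are labelled wild type ERT2cre, while the methods speak of WT B6 controls. All mice were female and 8 to 12 weeks old, and all received tamoxifen at 100 mg/kg daily for 5 days followed by 7 days of recovery. The inducible Cre of these mice was not limited to kidney cells. The study used 6 mice of each genotype, hence 1 array per mouse. The sample labels give renal cortex and the methods give whole kidney, and no sham operation is mentioned for the unischemic mice.

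HDAC2 is a class I histone deacetylase. It removes acetyl groups from histone tails as the catalytic subunit, together with its close relative HDAC1, of corepressor complexes such as CoREST, NuRD and Sin3. In the kidney, interstitial fibroblasts and pericytes supply most of the fibrillar collagen, injured tubules make Havcr1 (kidney injury molecule 1) and Lcn2 (neutrophil gelatinase-associated lipocalin), and each tubule segment is marked by its own transporters. The 3 gene themes described first, matrix, injury and transport, follow these roles.

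No probe set passed the test between HDAC2-/- and WT kidneys. With limma and Benjamini-Hochberg adjustment over 34472 probe sets, 0 had an adjusted p under 0.05 (0% of those tested) and the smallest adjusted p was 0.9999. At an unadjusted p under 0.05 there were 822 probe sets (2.38%), 401 higher (1.16%) and 421 lower (1.22%) in HDAC2-/- kidneys, where uniform p values would give 1723.6. Only 9 probe sets (0.0261%) were also at least 2-fold apart, 5 higher (0.0145%) and 4 lower (0.0116%), and of these 3 carried 1 gene symbol: Cox8b, Igkv8-30 and Scgb2b27. Differences below are therefore given as measured log2 values with their standard errors (SE), and none of them passed the adjusted test. The arrays did bound the size of most differences: the 95% confidence interval lay within 2-fold in either direction for 97.6% of probe sets and for 98.6% of the 22180 genes with a probe set of 1 symbol. The median SE of a log2 difference was 0.17. Between the groups, 1740 genes (7.84%) did not overlap, 823 higher (3.71%) and 917 lower (4.13%) in HDAC2-/- arrays, and 465 genes (2.10%) had an unadjusted p under 0.05, 193 higher (0.87%) and 272 lower (1.23%).

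**Figure D1:**
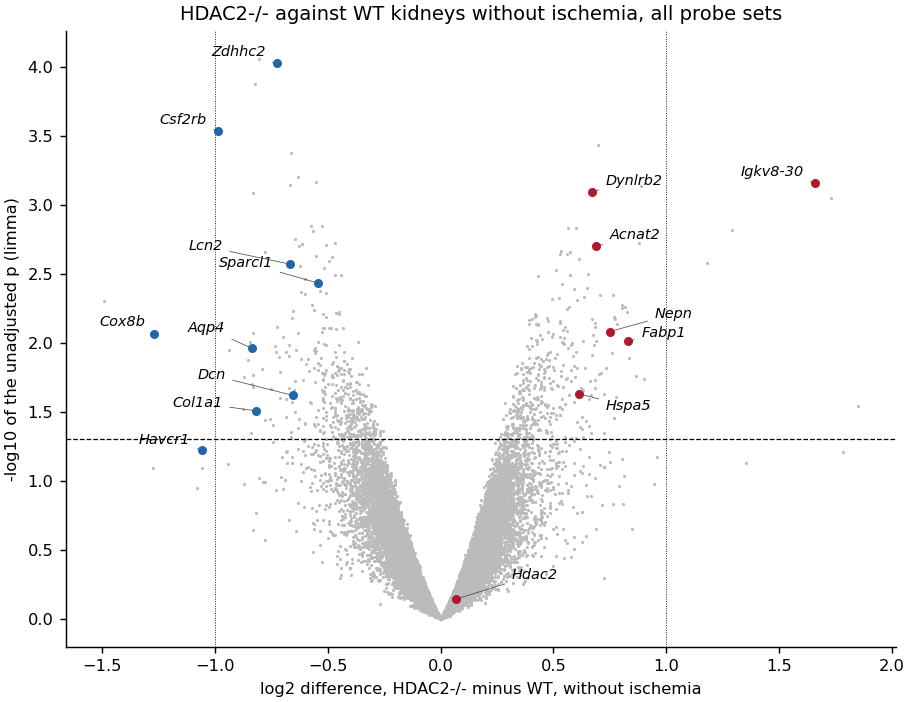
Log2 difference, HDAC2-/- minus WT without ischemia (x axis), against -log10 of the unadjusted limma p (y axis) for all 34472 probe sets, with named genes marked. The dashed line marks an unadjusted p of 0.05, passed by 822 probe sets, the dotted lines mark 2-fold, and Hdac2 sits near 0 at 0.07.

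The arrays themselves were alike. Array medians ran between 5.67 and 5.72 on the log2 scale, and Pearson's r across probe sets was 0.985 to 0.994 within a group and 0.983 to 0.993 between groups. HDAC2-/- replicate 3 stood apart, with a score of 0.72 on the first principal component of the 6 arrays (44.5% of their variance) and the lowest array weight of the 6, 0.38. WT replicate 1 was the highest array for a set of medullary genes, described with the transport genes. Segment markers of the kidney were present: Slc34a1, the sodium-phosphate cotransporter of the proximal tubule, had 14.07, 14.02 and 13.84 in HDAC2-/- arrays and 13.93, 14.06 and 13.96 in WT arrays. Adipoq, a defining fat gene added after its values were seen, was below the median of every array. It had 4.61, 4.30 and 4.17 in HDAC2-/- arrays and 3.91, 4.55 and 4.38 in WT arrays. Car3, another gene of the fat list, lay above every array median, between 7.24 and 8.39. Levels of different genes are not comparable, so neither level measures fat content. In whole tissue, fewer cells of a type and less RNA per cell cannot be told apart.

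The targeted gene was not lower in the arrays labelled HDAC2-/-. Hdac2 had log2 values of 7.83, 7.68 and 8.45 in HDAC2-/- arrays, against 7.90, 7.85 and 8.01 in WT arrays. The groups overlapped, with HDAC2-/- replicate 3 highest and HDAC2-/- replicate 2 lowest. The difference was 0.07 (SE 0.18, 95% interval -0.33 to 0.46). Where the probes of this set lie relative to the floxed exons is not given in the sources used here. Its signal therefore checks nothing about the deletion, and the groups are called by their labels. The paper reports loss of HDAC2 protein after tamoxifen, by Western blot and immunoperoxidase staining of contralateral kidneys from its ischemia experiments. Hdac1 and Hdac3 differed by 0.04 (SE 0.21) and 0.10 (SE 0.18).

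Among 18 histone deacetylases and sirtuins, the differences ran from -0.15 for Sirt5, a mitochondrial deacylase, to 0.10 for Hdac3, the enzyme of the NCoR and SMRT complexes. None of the 18 had an unadjusted p under 0.05, beside 2.10% of all genes, and the interval of each lay within 2-fold, beside 98.6%. The same held for 44 corepressor partners, whose differences ran from -0.19 for Mideas to 0.23 for Chd3, with a median of 0.01. Rcor1, which encodes the CoREST scaffold, differed by 0.10, and Kdm1a, its demethylase partner LSD1, by 0.06. Edn1, which encodes the vasoconstrictor endothelin-1, had 5.94, 5.80 and 5.37 in HDAC2-/- arrays and 6.20, 6.10 and 6.01 in WT arrays. All 3 HDAC2-/- values lay below all 3 WT values, and the difference was -0.40 (SE 0.26, 95% interval -0.97 to 0.17), or -0.23 without HDAC2-/- replicate 3. The other 5 members of the endothelin list lay between -0.08 for Ece1, the converting enzyme, and 0.04 for Ednrb, the B type receptor.

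Matrix genes lay mostly lower in HDAC2-/- kidneys. Of 130 measured matrix genes, 96 had a difference below 0 and 33 above, with a median of -0.17, beside a median of 0.00 over all genes. At an unadjusted p under 0.05, 14 were lower (10.8%, beside 1.23% of all genes) and 0 were higher. Without overlap of the arrays, 22 were lower and 2 higher, beside 4.13% and 3.71% of all genes. None passed the adjusted test. The intervals of 117 of the 130 genes (90.0%, beside 98.6% of all genes) lay within 2-fold. Per array, the median deviation of the 130 genes from their mean over the 6 arrays was 0.04, -0.09 and -0.18 in HDAC2-/- arrays and 0.15, 0.06 and -0.02 in WT arrays, so the groups overlapped at HDAC2-/- replicate 1 and WT replicate 3.

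These counts rested on single arrays. Without WT replicate 1 the lower count was 3 (Sparcl1, Mfap4 and Ccn1, of which Sparcl1 and Mfap4 were among the 14), without HDAC2-/- replicate 2 it was 5, and without WT replicate 3 it was 20. The median stayed below 0 in each of these fits, between -0.22 without HDAC2-/- replicate 1 and -0.11 without HDAC2-/- replicate 3.

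Col1a1, a chain of type I collagen, had the lowest difference of the matrix genes. Its log2 values were 8.79, 8.42 and 8.43 in HDAC2-/- arrays and 9.71, 9.36 and 9.02 in WT arrays. The groups did not overlap, WT replicate 1 was the highest, and the difference was -0.82 (SE 0.34, 95% interval -1.55 to -0.09), a level 0.568-fold that of WT. Without WT replicate 1 the difference was -0.64. Col3a1, the chain of type III collagen that is laid down with type I, had 7.91, 7.72 and 7.77 in HDAC2-/- arrays and 8.56, 8.13 and 8.08 in WT arrays. The lowest WT value was again above the highest HDAC2-/- value, and the difference was -0.46 (SE 0.18), or -0.30 without WT replicate 1. Of 21 collagens, 17 lay below 0, with a median of -0.22, and Col15a1 and Col6a1 joined Col1a1 and Col3a1 at an unadjusted p under 0.05. The type IV collagens of basement membranes were spread around 0, between -0.29 for Col4a2 and 0.14 for Col4a4.

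Among 45 glycoproteins and proteoglycans, 36 lay below 0, with a median of -0.23. Dcn, which encodes decorin, a small proteoglycan on collagen fibrils, had 8.97, 9.15 and 9.67 in HDAC2-/- arrays and 10.13, 9.72 and 9.90 in WT arrays. HDAC2-/- replicate 3 nearly reached the lowest WT array, without overlap, and the difference was -0.65 (SE 0.26). Sparcl1, a secreted matricellular protein, had 7.66, 7.95 and 8.08 in HDAC2-/- arrays against 8.60, 8.27 and 8.45 in WT arrays, a difference of -0.54 (SE 0.16). Mfap4, of the elastic microfibrils, had 5.75, 6.04 and 5.88 in HDAC2-/- arrays against 6.50, 6.46 and 6.30 in WT arrays, a difference of -0.53 (SE 0.19). Both genes kept an unadjusted p under 0.05 without WT replicate 1, at -0.46 and -0.49. Ccn2, the connective tissue growth factor, had 10.01, 9.68 and 10.18 in HDAC2-/- arrays and 10.75, 10.52 and 10.27 in WT arrays, a difference of -0.56 (SE 0.21). With the mean of all probe sets annotated to Ccn2 it was -0.34. Fbln1 (fibulin-1) and Ecm1 differed by -0.48 and -0.42, and Fn1, fibronectin, by -0.45 (SE 0.23) with overlapping arrays.

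The remaining matrix lists held fewer such genes. Of 35 proteases, inhibitors and cross-linkers, 2 were lower at an unadjusted p under 0.05 (5.71%, beside 1.23% of all genes). These were Mep1b, the beta subunit of the brush border protease meprin, at -0.69 (SE 0.29), and Mmp14, a membrane-bound metalloproteinase, at -0.39 (SE 0.16). Mep1b had 7.14, 7.58 and 7.27 in HDAC2-/- arrays and 8.71, 7.58 and 7.76 in WT arrays, so that WT replicate 1 alone stood high, and without it the difference was -0.34. Timp1, an inhibitor of metalloproteinases, did not overlap, with 5.61, 5.52 and 5.60 in HDAC2-/- arrays and 6.42, 6.15 and 5.79 in WT arrays. Of 29 integrins and fibrosis signalling genes, Pdgfra, a growth factor receptor of mesenchymal cells, differed by -0.51 (SE 0.20) and Cdh11, a mesenchymal cadherin, by -0.46 (SE 0.16). Tgfb1 differed by -0.24 (SE 0.14).

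**Figure D2:**
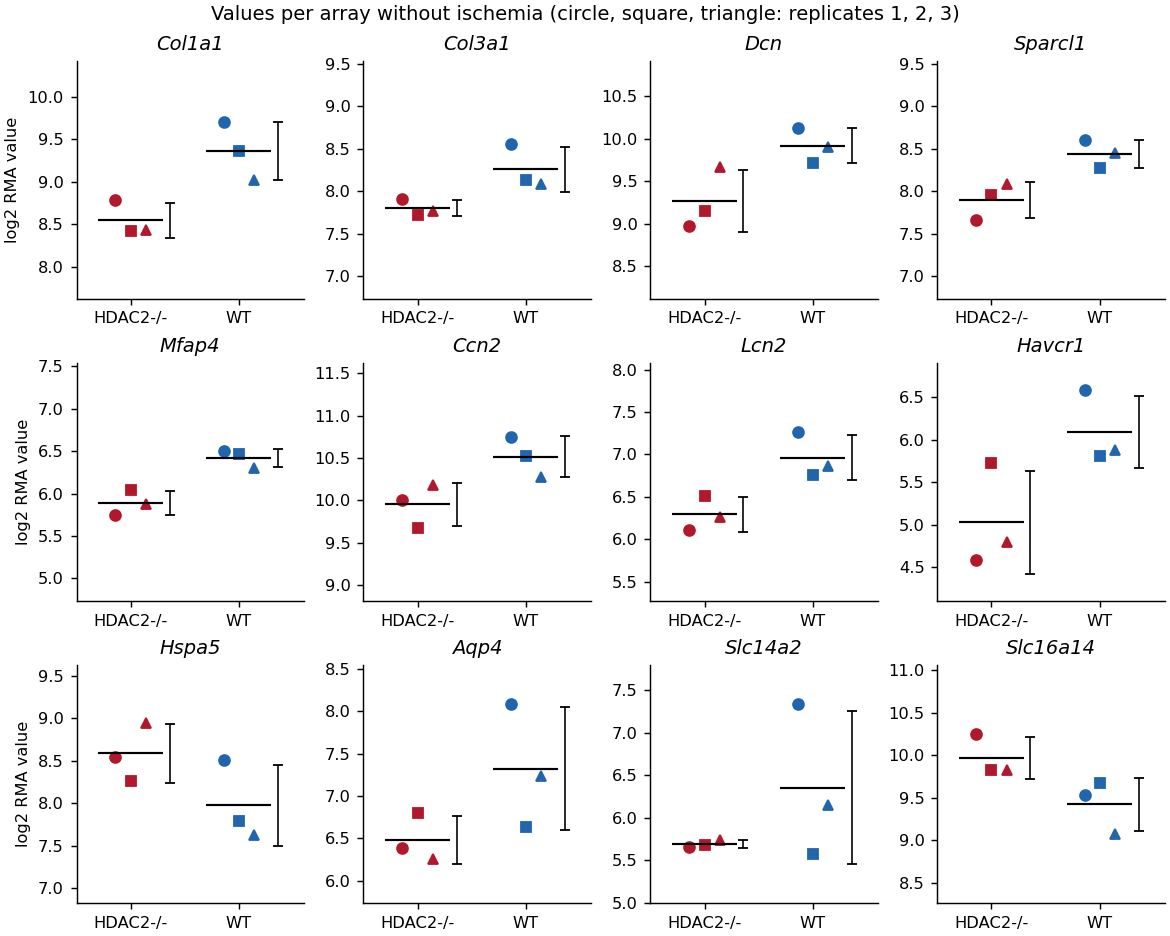
Log2 values of 12 genes in the 3 HDAC2-/- arrays (left of each panel) and the 3 WT arrays (right), with the mean as a line and the SD as a bar; every panel has the same height in log2 units. Col1a1, Col3a1, Dcn, Sparcl1, Mfap4, Ccn2, Lcn2 and Havcr1 did not overlap, while for Aqp4 and Slc14a2 the WT array of replicate 1 stood alone at 8.08 and 7.34.

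Fibroblast markers were read only as a description. A list of 14 fibroblast genes lay below 0 in 14 of 14, with a median of -0.50. It was assembled after the values of several of its genes were seen, and it shares most of them with the matrix lists. Its direction follows from that choice and is no separate finding. Its median deviation per array was -0.25, -0.21 and -0.38 in HDAC2-/- arrays and 0.38, 0.17 and 0.09 in WT arrays. The mean log2 level of the list was 7.40 to 7.49 in HDAC2-/- arrays and 7.84 to 8.14 in WT arrays. Cygb (cytoglobin) and Lum (lumican), a pair of genes typical of stromal cells, differed by -0.65 (SE 0.25) and -0.55 (SE 0.38). After ischemia, Cygb differed by 0.27 and Lum by -0.50. The part of fibroblast content in the matrix differences was not tested. Pericyte and smooth muscle genes gave a median of -0.12 over 10 genes, with Rgs5, a pericyte marker, lowest at -0.46 (SE 0.19) and Acta2, smooth muscle actin, at -0.08. Of 17 endothelial genes, 14 lay below 0, but their median was only -0.10. Macrophage and dendritic cell genes had a median of -0.12 over 19 genes, and neutrophil genes one of 0.03 over 12.

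The RefSeq promoter table (build GRCm38.p6) holds 7 of the 14 matrix genes. Over the 250 bases before the start, 2 of the 7 (Col3a1 and Ecm1) contain TATAAA or its reverse complement TTTATA, against 12.4% of 32851 promoters. GGGCGG or CCGCCC occurs in 3 of the 7 (Ecm1, Fbln1 and Mmp14), against 32.7%, and CCAAT or ATTGG in 1 of the 7 (Mmp14), against 33.8%. The 3 motifs share no letters at any match shown. These matches describe the letters and are not binding sites. Below, the promoters of Col3a1 and Lcn2, a matrix gene and an injury gene whose arrays did not overlap in either state, are shown with the matches in capitals, for chr1:45311288-45311537 on the plus strand and chr2:32387740-32387989 on the minus strand.
Col3a1: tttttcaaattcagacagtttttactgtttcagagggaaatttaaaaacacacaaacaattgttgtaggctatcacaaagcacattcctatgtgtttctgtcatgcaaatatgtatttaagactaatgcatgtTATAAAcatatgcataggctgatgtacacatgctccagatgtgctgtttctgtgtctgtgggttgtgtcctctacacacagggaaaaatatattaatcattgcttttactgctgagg
Lcn2: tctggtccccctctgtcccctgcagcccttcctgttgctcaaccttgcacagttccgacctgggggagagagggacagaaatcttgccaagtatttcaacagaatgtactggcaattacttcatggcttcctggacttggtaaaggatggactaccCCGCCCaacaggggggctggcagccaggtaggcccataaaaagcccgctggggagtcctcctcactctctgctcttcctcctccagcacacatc
Col3a1 has 1 TATAAA match, and Lcn2 has 1 match to the GC box on its reverse strand.

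Injury genes lay slightly lower in HDAC2-/- kidneys, with a few further apart. Of 142 measured injury genes, 91 lay below 0 and 48 above, with a median of -0.06. At an unadjusted p under 0.05, 5 were lower (3.52%, beside 1.23% of all genes) and 1 was higher (beside 0.87%), and without overlap 14 were lower and 2 higher (beside 4.13% and 3.71% of all genes). None passed the adjusted test. The intervals of 122 of the 142 genes (85.9%, beside 98.6% of all genes) lay within 2-fold. Per array, the median deviation of the 142 genes was -0.01, -0.04 and -0.04 in HDAC2-/- arrays and 0.04, 0.03 and 0.04 in WT arrays. Without WT replicate 1, 2 were lower and 4 higher.

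Lcn2 had log2 values of 6.11, 6.51 and 6.26 in HDAC2-/- arrays and 7.26, 6.76 and 6.86 in WT arrays. Every HDAC2-/- array was below every WT array, and the difference was -0.67 (SE 0.18, 95% interval -1.06 to -0.27), a level 0.630-fold that of WT. It was -0.52 without WT replicate 1. Havcr1 had 4.58, 5.72 and 4.79 in HDAC2-/- arrays against 6.58, 5.81 and 5.88 in WT arrays, also without overlap. Its difference of -1.06 (SE 0.52, 95% interval -2.17 to 0.05) was the lowest of the injury genes, and its interval included 0. Sprr1a, a small proline-rich protein of stressed epithelia, had 6.18, 6.39 and 7.27 in HDAC2-/- arrays and 7.64, 7.18 and 7.63 in WT arrays, a difference of -0.87 (SE 0.32) with HDAC2-/- replicate 3 among the WT values. Krt20, a keratin of injured tubules, differed by -0.50 (SE 0.42), without overlap, and Sox9, of regenerating tubules, by -0.02. Of the 29 tubular injury markers, 21 lay below 0, with a median of -0.09.

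Stress genes were mixed. Egr2, an immediate early transcription factor, had 6.63, 6.72 and 6.07 in HDAC2-/- arrays against 7.08, 6.87 and 7.45 in WT arrays, a difference of -0.66 (SE 0.27). Atf3, another early gene, differed by -0.28 (SE 0.29). Hspa5, the endoplasmic reticulum chaperone BiP, was the 1 injury gene that lay higher at an unadjusted p under 0.05, with 8.55, 8.26 and 8.95 in HDAC2-/- arrays against 8.51, 7.79 and 7.62 in WT arrays. WT replicate 1 overlapped the HDAC2-/- arrays, and the difference was 0.61 (SE 0.24). The heat shock list as a whole had a median of 0.04 over 26 genes, with Hspa1b, an inducible Hsp70, at 0.02 (SE 0.28). All 19 oxidative stress genes had intervals within 2-fold, beside 98.6% of all genes, and Hmox1, heme oxygenase 1, differed by -0.11 (SE 0.23). Among 36 chemokine, cytokine and adhesion genes, Cxcl14 differed by -0.46 (SE 0.20) and Ccl5 by -0.43 (SE 0.20). Ccl2, the monocyte chemokine, had 6.95, 6.56 and 6.58 in HDAC2-/- arrays against 7.09, 7.45 and 7.27 in WT arrays, a difference of -0.57 (SE 0.34) without overlap.

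**Figure D3:**
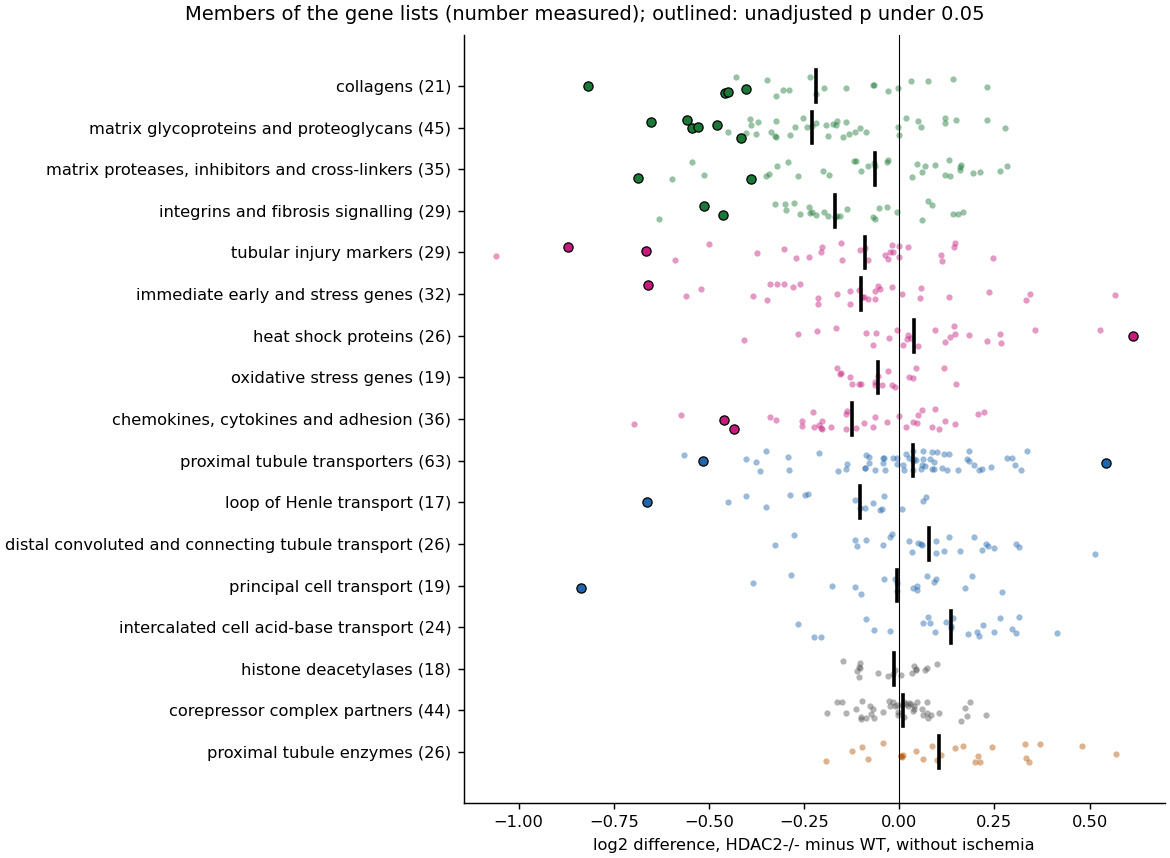
Log2 difference, HDAC2-/- minus WT without ischemia, of each measured member of 17 gene lists (numbers in brackets), with the list median as a black bar and members at an unadjusted p under 0.05 outlined. The medians of collagens and of matrix glycoproteins lay at -0.22 and -0.23, that of proximal tubule transporters at 0.04, and histone deacetylases stayed between -0.15 and 0.10.

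Transport genes were centred near 0. Of 151 measured genes, 86 lay above 0 and 65 below, with a median of 0.04. At an unadjusted p under 0.05, 1 was higher and 3 were lower (2.65% together, near the 2.10% of all genes), and the intervals of 142 of the 151 (94.0%, beside 98.6% of all genes) lay within 2-fold. Several carriers lay close to 0: Slc5a2, the glucose transporter SGLT2, differed by 0.09 (SE 0.15), Lrp2, the endocytic receptor megalin, by 0.13 (SE 0.18), and Slc12a3, the thiazide-sensitive cotransporter, by 0.06 (SE 0.20). Aqp2, the vasopressin-regulated water channel, differed by 0.09 (SE 0.23) and Scnn1a, a subunit of the epithelial sodium channel, by -0.04 (SE 0.17). Slc34a1 differed by -0.01 (SE 0.12, 95% interval -0.27 to 0.25), which bounded it within 2-fold. Counts again turned on single arrays: 0 were lower without WT replicate 1, and 6 were higher without HDAC2-/- replicate 3.

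Slc16a14, of the monocarboxylate transporter family, had 10.25, 9.83 and 9.82 in HDAC2-/- arrays and 9.53, 9.67 and 9.07 in WT arrays, a difference of 0.54 (SE 0.21) without overlap. Slc7a12, an amino acid transporter of the proximal tubule, had 11.26, 11.80 and 11.74 in HDAC2-/- arrays and 12.57, 11.78 and 12.00 in WT arrays, a difference of -0.52 (SE 0.19). Aqp4, the basolateral water channel of the collecting duct, had 6.39, 6.80 and 6.26 in HDAC2-/- arrays and 8.08, 6.64 and 7.24 in WT arrays, a difference of -0.84 (SE 0.29). Slc14a2, the urea transporter of the inner medulla, had 5.65, 5.68 and 5.74 in HDAC2-/- arrays and 7.34, 5.57 and 6.15 in WT arrays, a difference of -0.66 (SE 0.31). Both overlapped, and WT replicate 1 was the highest of the 6 arrays for Aqp4, Slc14a2 and Slc7a12. Without that array, the differences of Aqp4 and Slc14a2 were -0.46 and -0.17, and neither had an unadjusted p under 0.05.

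WT replicate 1 was also highest for other genes of the medulla. Slc6a12, the betaine transporter that loads osmolyte into medullary cells, had 5.75, 5.83 and 5.58 in HDAC2-/- arrays and 7.04, 5.76 and 5.76 in WT arrays. Cryab, a small heat shock protein rich in the medulla, had 11.14, 11.40 and 10.77 in HDAC2-/- arrays and 12.12, 11.24 and 11.17 in WT arrays. Over 12 medullary genes, listed after these values were seen, the median deviation was -0.19, -0.06 and -0.27 in HDAC2-/- arrays and 0.57, -0.13 and 0.04 in WT arrays. Aqp2 did not share this pattern, with 11.24, 11.12 and 11.44 in HDAC2-/- arrays and 11.06, 11.15 and 11.32 in WT arrays. WT replicate 1 was the highest array for Col1a1, Col3a1, Dcn, Lcn2 and Havcr1 too. The part of medullary tissue in these differences was not tested.

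**Figure D4:**
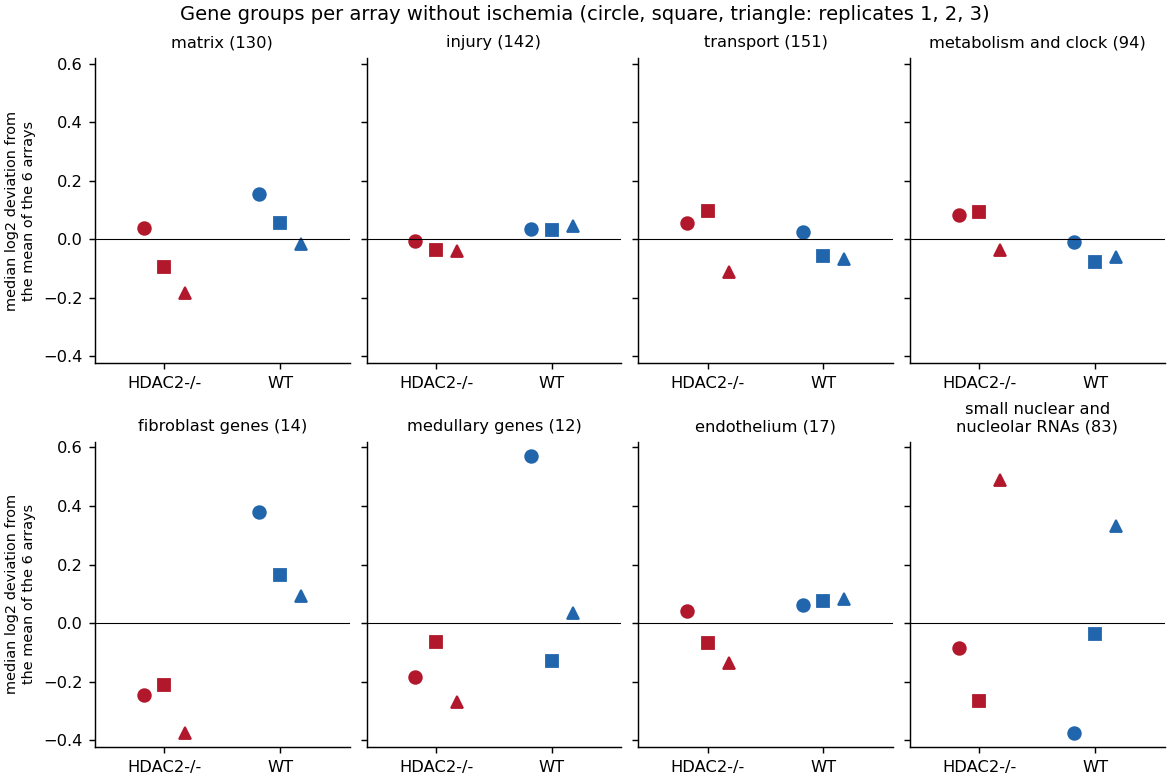
Median log2 deviation of 8 gene groups from their mean over the 6 arrays (y axis), per array, HDAC2-/- left and WT right, with the number of genes in brackets. The fibroblast list, chosen after several of its values were seen, was low in all HDAC2-/- arrays, which follows from that choice, the injury and endothelial lists did not overlap over a smaller span, the medullary list was high in WT replicate 1 alone at 0.57, and small nuclear and nucleolar RNAs were high in replicate 3 of both groups at 0.49 and 0.33.

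Acid-base transport of intercalated cells gave the highest median of the transport lists, 0.14 over 24 genes, with 4 higher and 1 lower without overlap, beside 3.71% and 4.13% of all genes. Slc26a4, the bicarbonate exchanger pendrin, had 8.79, 8.72 and 8.78 in HDAC2-/- arrays and 8.14, 8.55 and 8.68 in WT arrays, a difference of 0.31 (SE 0.24). The HDAC2-/- arrays lay close together, just above the highest WT array, and without WT replicate 1 the difference was 0.15. Hepacam2, a marker of intercalated cells, differed by 0.41 (SE 0.23) with overlap. Loop of Henle genes had a median of -0.10 over 17, with Slc12a1, the furosemide-sensitive cotransporter, at -0.25 (SE 0.28) and Umod, uromodulin, at -0.04 (SE 0.21). Without WT replicate 1, Slc12a1 was at 0.06.

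Metabolic genes lay mostly above 0. Of 74 cytochrome P450, proximal tubule enzyme and fatty acid oxidation genes, 51 lay above 0 and 22 below, with a median of 0.09. At an unadjusted p under 0.05, 2 were higher and 2 lower (5.41% together, beside 2.10% of all genes). Of 26 proximal tubule enzymes, 21 lay above 0 and 7 were higher without overlap, with 0 lower, beside 3.71% and 4.13% of all genes. Their median deviation per array was 0.12, 0.12 and -0.10 in HDAC2-/- arrays and 0.00, 0.00 and -0.15 in WT arrays, so HDAC2-/- replicate 3 lay below a pair of WT arrays. Among these enzymes, Pck1, the gluconeogenic enzyme PEPCK, had 12.72, 12.31 and 12.37 in HDAC2-/- arrays against 12.29, 12.06 and 12.03 in WT arrays, a difference of 0.34 (SE 0.16). Hpd, of tyrosine breakdown, differed by 0.37 (SE 0.17) and Cyp27b1, which makes active vitamin D, by 0.48 (SE 0.24). None of the 26 had an unadjusted p under 0.05, beside 2.10% of all genes.

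Fabp1, the liver-type fatty acid binding protein, had 6.04, 5.15 and 6.52 in HDAC2-/- arrays against 4.99, 5.14 and 5.09 in WT arrays. Its difference of 0.83 (SE 0.28) was the highest of the named genes other than Igkv8-30, although HDAC2-/- replicate 2 lay barely above WT replicate 2, and it was 0.52 without HDAC2-/- replicate 3. Cyp2e1, an ethanol-oxidizing cytochrome, had 10.86, 11.00 and 10.59 in HDAC2-/- arrays and 10.40, 10.24 and 10.19 in WT arrays, a difference of 0.54 (SE 0.16). Cyp2d12, also a cytochrome P450, lay the other way, with 10.09, 9.93 and 10.07 in HDAC2-/- arrays and 10.35, 10.85 and 10.79 in WT arrays, a difference of -0.63 (SE 0.14). Cd36, the fatty acid translocase, had 7.60, 8.16 and 8.87 in HDAC2-/- arrays and 9.15, 8.49 and 9.01 in WT arrays, a difference of -0.67 (SE 0.26) with overlap, or -0.37 without HDAC2-/- replicate 1.

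Among the 23521 probe sets of 1 symbol, 368 had an unadjusted p under 0.05 and no overlap, 164 higher and 204 lower. Over all genes, 2.10% had an unadjusted p under 0.05 and 7.84% did not overlap. The 12 lowest named genes were Cox8b, Csf2rb, Stfa2, Ctsq, Col1a1, Slc6a15, Prl2c5, Zdhhc2, Pgf, Car3, Foxq1 and Lcn2. Cox8b, a cytochrome c oxidase subunit of muscle and brown fat, had 7.12, 7.02 and 6.62 in HDAC2-/- arrays and 8.83, 7.84 and 7.90 in WT arrays, a difference of -1.27 (SE 0.42), or -0.95 without WT replicate 1. Csf2rb, the common chain of the IL-3, IL-5 and GM-CSF receptors, had 5.37, 4.43 and 4.70 in HDAC2-/- arrays and 5.97, 5.59 and 5.90 in WT arrays, a difference of -0.99 (SE 0.21). Zdhhc2, a palmitoyltransferase, was the tightest of the 12, with 5.92, 6.16 and 6.05 in HDAC2-/- arrays and 6.80, 6.74 and 6.77 in WT arrays. Its difference was -0.73 (SE 0.13), the limma p was 9.38e-05 and the adjusted p was 0.9999. Car3, a carbonic anhydrase of muscle and fat, had 7.89, 7.24 and 7.43 in HDAC2-/- arrays and 8.22, 8.39 and 8.10 in WT arrays. Of the 14 genes of the fat list that holds Car3, 8 lay below 0 and 5 above, with a median of -0.03. In this list 2 were lower without overlap, Car3 and Cidec, and 1 was higher, beside 4.13% and 3.71% of all genes. The higher one was Pck1, which is also counted among the proximal tubule enzymes above. Cidec, a lipid droplet protein, had 4.48, 4.40 and 4.55 in HDAC2-/- arrays and 5.02, 5.37 and 4.60 in WT arrays, a difference of -0.52 (SE 0.38), while Adipoq differed by 0.08. The part of fat in these differences was not tested. Stfa2, Ctsq and Prl2c5 had group means below the 25th percentile of every array, the lowest of which was 4.20.

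The highest named genes were Fabp1, Nell2, Nepn, Acnat2, Dynlrb2, Dmbt1, Tas2r139, Myh1, Cdk5rap1, Ptgds, Ces2g and, tied at 0.54, Slc16a14 and Bex6. Of these, Tas2r139, Myh1 and Bex6 had group means below the 25th percentile of every array, the lowest of which was 4.20. The WT mean of Dmbt1, 3.70, also lay below it. Nepn, which encodes the leucine-rich proteoglycan nephrocan, had 8.55, 8.61 and 8.81 in HDAC2-/- arrays and 7.34, 7.87 and 8.51 in WT arrays, a difference of 0.75 (SE 0.24), or 0.47 without WT replicate 1. Acnat2, an acyltransferase that conjugates fatty acids with amino acids, had 10.69, 10.40 and 10.76 in HDAC2-/- arrays and 10.16, 9.80 and 9.82 in WT arrays, a difference of 0.69 (SE 0.18). Dynlrb2, a dynein light chain, had 4.88, 4.93 and 4.96 in HDAC2-/- arrays and 4.49, 4.08 and 4.18 in WT arrays, a difference of 0.67 (SE 0.16). Igkv8-30, an immunoglobulin segment named after its value was seen, had 6.34, 6.62 and 5.39 in HDAC2-/- arrays and 4.65, 4.45 and 4.27 in WT arrays, a difference of 1.66 (SE 0.38). Exact permutation of 3 against 3 arrays gives no p under 0.10, which every gene without overlap had.

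The same genes were then read in the 6 ischemic arrays, which share no mouse with the unischemic ones. Of the 822 probe sets, 434 (52.8%) differed in the same direction after ischemia, beside 46.4% of all probe sets. An unadjusted p under 0.05 between HDAC2-/- and WT ischemic arrays was found for 10.7% of the 822, 59 in the same and 29 in the opposite direction, beside 6.59% of all probe sets. No probe set passed limma's adjusted test between the ischemic groups (0%), where 2273 had an unadjusted p under 0.05. The test of the difference between the 2 states also called 0 (0%, smallest adjusted p 0.956), with 1445 (4.19%) at an unadjusted p under 0.05.

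Of the 14 matrix genes, 10 (71.4%) were also lower in ischemic HDAC2-/- arrays, beside 54.6% of the 130 matrix genes in the same direction in both states. Of these, 4 (Col1a1, Col3a1, Dcn and Sparcl1) had an unadjusted p under 0.05, beside 20 of the 130 matrix genes (15.4%) and 3.15% of all genes. Sparcl1 had 7.73, 8.17 and 8.02 in ischemic HDAC2-/- arrays and 8.54, 8.58 and 8.44 in ischemic WT arrays, a difference of -0.55 beside -0.54 without ischemia. Lcn2 had 10.00, 9.40 and 9.47 in ischemic HDAC2-/- arrays and 10.50, 10.63 and 10.49 in ischemic WT arrays, a difference of -0.92 without overlap. Its genotype difference was thus below 0 in both states, with no overlap in either, and the test of the difference between states gave a limma p of 0.35. Acnat2 was higher by 0.71 after ischemia, Nepn by 0.96, Ces2g, a carboxylesterase, by 0.56, and Fabp1 by 0.75, and none of these 4 overlapped in either state. Cyp2d12 was at -0.63 in both states, and Car3 at -1.34 after ischemia. Havcr1, Cox8b and Foxq1 were at -0.02, -0.09 and 0.07 after ischemia, and Ccn2 was at 0.31. Zdhhc2 and Pgf, both among the 12 lowest named genes without ischemia, were at 0.17 and 0.28 after it. For Zdhhc2 the test of the difference between states gave a limma p of 3.34e-04 and an adjusted p of 0.956.

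**Figure D5:**
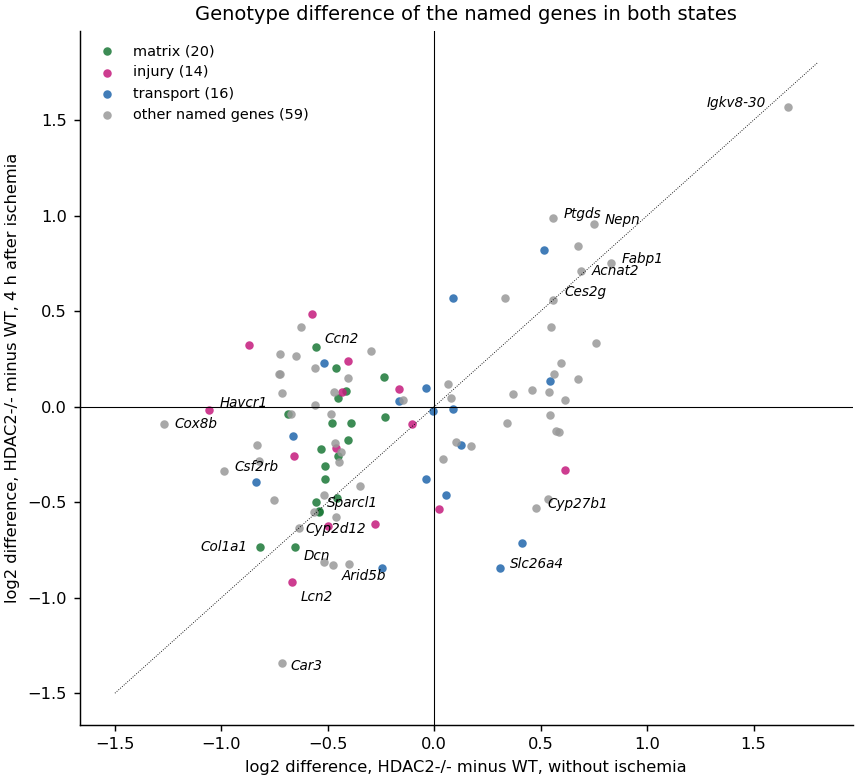
Log2 difference, HDAC2-/- minus WT, of the 109 named genes without ischemia (x axis) and 4 h after ischemia (y axis), in separate mice, colored by gene theme; the dotted line marks equal differences. Lcn2, Col1a1, Dcn and Car3 lie low on both axes, Igkv8-30, Nepn and Acnat2 lie high on both, and Slc26a4 lies right of 0 and low.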

How the data were processed

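GeneChip Mouse Gene 2.0 ST arrays were hybridised with total RNA from 12 mouse kidneys. The authors used Transcriptome Analysis Console 4.0 and applied RMA (robust multiarray average) normalization. They deposited log2 values with 2 decimals, which span 1.58 to 14.51. Background and summarization settings are not given in the sources used here. Values are per probe set, and levels of different genes are not comparable. Arrays give no depth, so their number limits the precision.

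A linear model with a mean for each of the 4 groups was estimated from the 12 arrays (limma 3.58.1, R 4.3.3), and variances were moderated by empirical Bayes, with 8 residual degrees of freedom and 5.94 from the prior. The contrast was HDAC2-/- minus WT without ischemia. Benjamini-Hochberg adjustment covered 34472 probe sets. The fit was tested on simulated data. Of the probe sets, 23521 had 1 gene symbol in the platform annotation, 1820 had several and 9131 were not listed. The probe set with the highest mean stood for a gene. The 40 gene lists held 840 genes in their themes, 765 of them measured. The members and lists were chosen with earlier results of these data known. Named genes were Hdac1, Hdac2, Hdac3 and Edn1, the 12 highest and 12 lowest without overlap at an unadjusted p under 0.05 (ties with the last one kept), the extremes of each list and fixed anchors. Predicted genes, small RNAs, receptors of smell and antigen receptor segments (111 of the 368) were counted and not named by that rule. The fibroblast and medullary lists, all matrix genes at an unadjusted p under 0.05, Igkv8-30, Cygb, Lum, Slc6a12, Cryab, Adipoq, Cidec, Cd36, Fabp1, Cyp2d12, Cyp2e1, Pck1, Hpd, Cyp27b1, the miR-30c genes and those on the chromosome of Hdac2 were added after their values were seen.

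The alternatives were other scaling, a filter on low values, probe sets of 1 symbol, a fit to 6 arrays, other empirical Bayes settings, a block for the replicate number, array weights, the mean of all probe sets of a gene, other thresholds and leaving out each array. matplotlib 3.10.9 (Python 3.11.15) served for plotting.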

Additional observations from a re-analysis of the deposited data

Results flagged for a closer look

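Slc26a4, which encodes pendrin, differed by 0.31 (HDAC2-/- minus WT) without ischemia and by -0.85 after ischemia, and the arrays did not overlap in either state, so that the genotypes stood in opposite order. Without WT replicate 1 the unischemic difference was 0.15. After ischemia the values were 8.75, 7.73 and 8.15 in HDAC2-/- arrays and 8.83, 9.45 and 8.89 in WT arrays. The difference between the states was -1.15, with a limma p of 0.004 and an adjusted p of 0.956, so it did not pass the test.

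Cyp27b1, which makes active vitamin D, showed the same order of signs, with 0.48 without ischemia and -0.53 after it, and no overlap in either state, or 0.32 without WT replicate 1 in place of 0.48. It had 7.49, 7.38 and 7.46 in ischemic HDAC2-/- arrays and 8.62, 7.71 and 7.59 in ischemic WT arrays. The difference between the states was -1.01, with a limma p of 0.01 and an adjusted p of 0.956. It was singled out after its values were seen.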

How the results depend on the processing

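The count of 0 called probe sets held under every alternative run, leaving out each array included, and when the threshold was set at 0.1 with over 1.5-fold. Array weights gave 2479 probe sets at an unadjusted p under 0.05 (1130 higher, 1349 lower), 22 of at least 2-fold, 27 matrix genes lower and 2 higher, 11 injury genes lower and 3 higher, and 6 transport genes higher. A mean log2 value of at least 5 left 383 probe sets (156 higher, 227 lower), and probe sets of 1 symbol left 527 (220 higher) with 3 of at least 2-fold, since fewer were tested. A fit to the 6 unischemic arrays gave 1008 probe sets at an unadjusted p under 0.05, beside 822 in the main fit. It gave 22 matrix and 11 injury genes lower and 3 transport genes higher. No empirical Bayes step gave 905 probe sets at that threshold. It gave 8 matrix genes lower and 1 higher, and 2 injury genes lower and 0 higher. The mean of all probe sets of a gene gave 2 injury genes higher. The cause was not tested.

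Leaving out each array in turn gave 24 to 41 probe sets of at least 2-fold, 798 to 1168 at an unadjusted p under 0.05, 375 to 516 higher and 397 to 658 lower. It gave matrix medians of -0.22 to -0.11 with 3 to 20 lower and 0 to 1 higher, injury medians of -0.085 to -0.062 with 2 to 7 lower and 0 to 4 higher, and transport medians of -0.02 to 0.10 with 0 to 6 lower and 0 to 6 higher. The smallest numbers of lower matrix (3), injury (2) and transport (0) genes came without WT replicate 1.

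With the replicate number as a block, 0 probe sets were called and 922 had an unadjusted p under 0.05. At that threshold 20 matrix genes were lower, beside 14 in the main fit, and 8 injury genes were lower. Residuals of same-numbered HDAC2-/- and WT arrays correlated at 0.29, 0.03 and 0.44. The main fit treated these arrays as unpaired, and whether they shared more than a number was not tested. The block changed no call.

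Of 1076 values of single genes under other settings, 6 turned in sign, all with array weights: Hdac2 -0.083, Hspa1b -0.078, Hmox1 0.00233, Slc34a1 0.015, Umod 0.12 and Scnn1a 0.010. Of 654 values with an array left out, 20 turned, with these ranges: Hdac1 -0.065 to 0.245, Hdac2 -0.165 to 0.22, Sirt5 -0.272 to 0.053, Hspa1b -0.242 to 0.203, Hmox1 -0.267 to 0.123, Slc34a1 -0.053 to 0.062, Slc12a1 -0.487 to 0.058, Umod -0.145 to 0.155, Slc12a3 -0.040 to 0.215, Scnn1a -0.133 to 0.052, Wnt7b -0.518 to 0.092 and Adipoq -0.105 to 0.215.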

Other observations

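The precursor genes of miR-30c lay in opposite directions. Both were singled out after their values were seen. Mir30c-1 had 4.28, 3.84 and 4.84 in HDAC2-/- arrays and 4.64, 5.20 and 5.00 in WT arrays, a difference of -0.63 (SE 0.27). Mir30c-2 had 4.65, 4.56 and 4.88 in HDAC2-/- arrays and 3.94, 3.96 and 4.59 in WT arrays, a difference of 0.53 (SE 0.19). Both overlapped between the groups and both lay below the median of every array. The mature sequences (RefSeq, GRCm38.p6) are shown because both genes encode the same 5p arm, with the seed, bases 2 to 8, in capitals.
mmu-miR-30c-5p: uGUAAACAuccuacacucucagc
mmu-miR-30c-1-3p: cUGGGAGAggguuguuuacucc
mmu-miR-30c-2-3p: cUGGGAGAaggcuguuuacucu
The 3p arms share their seed. After ischemia the differences were 0.42 for Mir30c-1 and -0.48 for Mir30c-2. Of 484 miRNA genes, 6 were higher and 5 lower at an unadjusted p under 0.05 (2.27%, near the 2.10% of all genes), with a median of 0.00.

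Genes on the chromosome that carries Hdac2 were listed as a description. Of 35 genes with a known chromosome that had an unadjusted p under 0.05 in both states and the same direction, 8 (22.9%) lay on it: Dcn, Arid5b, Nepn, Smlr1, Mir1931, Olfr792, Amdhd1 and Gm15915. It holds 4.79% of all 21994 genes with a chromosome and 28 of the 457 genes (6.13%) at an unadjusted p under 0.05 without ischemia. Dcn, Ccn2, Col6a1 and Egr2, described with the matrix and injury genes, are among these 28. Arid5b, a chromatin-binding factor, had 8.42, 8.69 and 8.29 in HDAC2-/- arrays and 9.37, 8.77 and 8.69 in WT arrays, and differed by -0.48 without ischemia (-0.26 without WT replicate 1) and by -0.83 after it. Of the 30 measured genes nearest to Hdac2, 15 on each side, 0 had an unadjusted p under 0.05 without ischemia, beside 2.10% of all genes. Without overlap, 3 of the 30 were lower and 0 higher, beside 4.13% and 3.71% of all genes. Their differences ran from -0.34 for Marcks to 0.25 for Col10a1.

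Of 20 circadian clock genes, 16 lay above 0, with Ciart at 0.47, Npas2 at -0.40 and Arntl at -0.35. None of the 20 had an unadjusted p under 0.05, beside 2.10% of all genes. Histone genes had a median of -0.06 over 48, with H1f10, a linker histone, at -0.47 (SE 0.17). Small nuclear and nucleolar RNAs were high in replicate 3 of both groups, with median deviations of -0.09, -0.27 and 0.49 in HDAC2-/- arrays and -0.38, -0.04 and 0.33 in WT arrays over 83 genes.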
